A study of Mus musculus with 12 samples.

Results

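The genes that open the kynurenine pathway of tryptophan breakdown, carry it on to nicotinamide adenine dinucleotide (NAD), recycle nicotinamide into NAD or divert nicotinamide from it were followed in mouse liver and lung after CLP. The group was set by name and holds 10 genes, Tdo2, Ido1, Ido2, Afmid, Kmo, Kynu, Haao, Qprt, Nampt and Nnmt, of the 55414 genes in the count table, and each symbol matched a mouse gene identifier there. RNA was sequenced from CLP liver, sham liver, CLP lung and sham lung of wild-type C57BL/6J mice, with 3 libraries in each of the 4 groups, taken 6 h after surgery. CLP is read here as cecal ligation and puncture, an operation that lets gut contents into the abdomen and serves as a model of sepsis, while sham mice had surgery labelled as the control. The mice shared genotype, strain, diet and housing, and no age is given in the sources used here.

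Tryptophan is oxidised mostly by the kynurenine pathway. In liver the haem enzyme encoded by Tdo2 begins it, while Ido1, and the related Ido2, encode enzymes that carry out the same reaction, and Ido1 is known as an interferon-gamma target outside the liver. Afmid encodes the formamidase that yields kynurenine, Kmo the mitochondrial hydroxylase, Kynu the kynureninase and Haao the ring-opening dioxygenase whose product turns into quinolinate. Qprt joins quinolinate to the NAD route, Nampt makes nicotinamide mononucleotide from nicotinamide and limits the salvage route, and Nnmt methylates nicotinamide so that it leaves that route.

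Among the members Nampt had the lowest p in liver and Qprt in lung. Haao and Qprt, which act in sequence, were called lower in CLP liver and higher in CLP lung. Their liver calls did not hold when some single libraries were left out, and Qprt passed the lung filter through its CLP libraries alone. The promoters of Nampt, Qprt and Haao are therefore shown. Each runs 5′ to 3′ on the strand of the gene from 250 bases before to 50 after the start site in RefSeq (GRCm38.p6), and capitals mark matches to the motifs searched. Nampt lies at chr12:32820085-32820384 on the plus strand, Qprt at chr7:127121980-127122279 and Haao at chr17:83846741-83847040 on the minus strand.
Nampt: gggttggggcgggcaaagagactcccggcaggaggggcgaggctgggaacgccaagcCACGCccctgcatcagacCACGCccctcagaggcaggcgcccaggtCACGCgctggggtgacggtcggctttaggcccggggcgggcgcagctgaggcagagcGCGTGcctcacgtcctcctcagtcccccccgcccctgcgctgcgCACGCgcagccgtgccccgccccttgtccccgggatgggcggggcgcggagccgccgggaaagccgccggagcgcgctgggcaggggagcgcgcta
Qprt: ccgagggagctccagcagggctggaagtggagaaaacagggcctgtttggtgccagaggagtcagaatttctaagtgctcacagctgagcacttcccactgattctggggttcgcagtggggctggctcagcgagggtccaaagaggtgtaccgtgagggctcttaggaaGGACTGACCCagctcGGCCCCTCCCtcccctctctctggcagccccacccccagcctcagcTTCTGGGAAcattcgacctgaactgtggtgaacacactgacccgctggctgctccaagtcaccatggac
Haao: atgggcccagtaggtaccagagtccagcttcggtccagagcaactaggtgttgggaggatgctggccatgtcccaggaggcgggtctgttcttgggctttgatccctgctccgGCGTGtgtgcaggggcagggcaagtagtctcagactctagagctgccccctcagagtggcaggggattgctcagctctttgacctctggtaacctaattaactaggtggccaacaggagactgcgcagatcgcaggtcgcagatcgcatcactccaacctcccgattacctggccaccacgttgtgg
Of the 10 genes, 6 were matched to a promoter in the table used here, these 3 and Tdo2, Afmid and Kmo. The promoters of Ido1, Ido2, Kynu and Nnmt were not analysed here. Both strands were searched for an interferon-gamma-activated site (GAS, TTCNNNGAA), an interferon-stimulated response element core (ISRE), an NF-kB site, an E-box (CACGTG), AP-1 (TGANTCA), C/EBP (TTGCNNAA) and the core of the xenobiotic response element (GCGTG), and no 2 matches overlapped. The Nampt window held 5 matches to GCGTG, the only motif of the 7 found there. The Qprt window held 1 GAS match, which begins 19 bases before the start site, and 2 NF-kB matches, and the Haao window held 1 GCGTG match, as did that of Tdo2. Among all 32851 mouse promoters of this length, 8.298% held the GAS letters, 50.79% NF-kB and 32.39% GCGTG. ISRE core letters stood in 3.443%, E-box letters in 7.15%, AP-1 letters in 7.808% and C/EBP letters in 10.8%, and in none of the 6. A match describes letters and is not a site of binding.

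Total counts ran from 10559895 to 15854117 per library, at which 3 counts are 0.189 to 0.284 CPM (counts relative to the library size). Organ markers matched the labels. The hepatocyte transcript Alb ran from 46790 to 71639 CPM in liver and from 17.1 to 88.0 CPM in lung, and the alveolar type 2 transcript Sftpc from 9949 to 14008 CPM in lung and, in liver, from 4.95 to 9.38 CPM after CLP and from 0.301 to 2.07 CPM after sham surgery. The replicates are numbered in the labels but not said to be separate mice, so each p-value covers only the spread between these samples. Member levels within an organ are CPM on scaled library sizes, and 2-sided p-values come from edgeR's quasi-likelihood test with Benjamini-Hochberg adjustment over all genes of a comparison, called below 0.05. In whole organs, fewer cells of a type and less RNA per cell cannot be told apart.

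In CLP liver the members changed in unequal directions. Of the 10, 9 were tested, since Ido1 had 0 counts in all 6 liver libraries. Nampt rose 8.56-fold, while Ido2, Kmo, Kynu, Haao and Qprt fell, and Tdo2, Afmid and Nnmt did not pass the test. Among all 12392 genes tested, 42.3% were called, 21.4% higher and 21.0% lower. CLP and sham libraries did not overlap for 6 of the 9 tested members, the 6 called, beside 55.7% of all genes tested. The median log2 fold change of the 9 members was -0.40, beside -0.01 over all genes.

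The entry genes of liver differed in level and response. Tdo2 had 1536, 2335 and 2574 CPM in CLP livers against 2823, 3179 and 1994 CPM in sham livers, so the groups overlapped. Its log2 fold change was -0.31 (95% interval -0.85 to 0.23), with an adjusted p of 0.318. Ido2 had 23.0, 12.6 and 24.4 CPM in CLP livers against 44.2, 54.1 and 58.9 CPM in sham livers, with no overlap. It was the member with the largest fall, at -1.39 ± 0.24 (SE) on the log2 scale with an adjusted p of 0.00311. Levels per kilobase of exon set genes beside each other, but depend on the merged exon lengths of an older annotation. On this scale Tdo2 held 99.0 ± 0.50% of the summed level of Tdo2, Ido1 and Ido2 in CLP liver. In sham liver it held 97.8 ± 0.78% (SD, n = 3 each), and in both groups Ido2 held the remainder.

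Of the 5 genes that follow the entry step, Afmid, Kmo, Kynu, Haao and Qprt, 4 fell in CLP liver. Kmo had 313, 284 and 326 CPM in CLP livers against 384, 541 and 486 CPM in sham livers, and its change was -0.61 ± 0.15 on the log2 scale with an adjusted p of 0.0110. Kynu had 77.4, 64.2 and 88.1 CPM in CLP livers against 88.6, 104 and 127 CPM in sham livers. Its highest CLP library lay just under its lowest sham library. Haao had 214, 191 and 236 CPM in CLP livers against 252, 297 and 299 CPM in sham livers. Qprt had 112, 82.2 and 104 CPM in CLP livers against 122, 137 and 139 CPM in sham livers. The 3 last genes fell by 0.48 ± 0.16, 0.40 ± 0.13 and 0.42 ± 0.13 on the log2 scale in the order Kynu, Haao and Qprt, with adjusted p of 0.0427, 0.0351 and 0.0349. These 3 calls did not hold when single libraries were left out. Without CLP replicate 1 the adjusted p was 0.0921 for Kynu and 0.0850 for Haao, and without CLP replicate 2 it was 0.105 for Kynu, 0.0873 for Haao and 0.0737 for Qprt. Without CLP replicate 3 it was 0.0653 for Qprt. Without sham replicate 2 it was 0.0849 for Kynu, 0.103 for Haao and 0.0930 for Qprt, and without sham replicate 3 it was 0.143, 0.109 and 0.101 in the same order. Afmid, whose exons overlap Gm20708 on the same strand and Tk1 on the other, so that its reads may be shared, had 10.5, 14.4 and 12.8 CPM in CLP livers against 17.2, 16.5 and 12.9 CPM in sham livers. Its log2 fold change was -0.30 (95% interval -0.67 to 0.08), with an adjusted p of 0.176.

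The salvage gene Nampt rose most. It had 255, 702 and 551 CPM in CLP livers against 66.6, 51.7 and 57.8 CPM in sham livers, and the lowest CLP library held several times the highest sham library. Its log2 fold change was 3.10 ± 0.37, with an adjusted p of 0.000731. Nnmt had 270.4, 569.6 and 296 CPM in CLP livers against 323, 543 and 338 CPM in sham livers, and replicate 2 of both groups was highest. The groups overlapped, and the log2 fold change was -0.08 (95% interval -0.86 to 0.69) with an adjusted p of 0.859. The level of Nampt per kilobase divided by that of Qprt was 2.81 ± 1.64 in CLP liver and 0.233 ± 0.046 in sham liver (SD, n = 3 each). Nnmt stood at 2.57 ± 0.84 times the level of Nampt per kilobase in CLP liver and 22.7 ± 9.68 times in sham liver (SD, n = 3 each).

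Markers of several cell types also differed between CLP and sham livers. The 11 neutrophil markers summed to 170.4 to 248 CPM in CLP livers and 17.1 to 19.4 CPM in sham livers, where Camp and Ltf had 0 counts. Of them, 9 of 9 tested were higher in CLP livers. Mmp9, Ngp and Ltf passed the filter through their CLP libraries alone, and the other 6 were all higher. Monocyte and macrophage markers were higher for 4 and lower for 1 of 9 tested, or 2 higher and 1 lower of the 7 that passed the filter in both groups. Kupffer cell markers were lower for 5 and higher for 1 of 8 tested, and sinusoidal endothelial markers lower for 6 and higher for 1 of 7. Hepatocyte markers summed to 101847 to 122051 CPM in CLP livers and 80536 to 104691 CPM in sham livers, with 2 higher and 1 lower of 9, and none was at 0. Markers of lung cells also differed between these livers, with 5 of 6 tested alveolar type 2 markers and 2 of 3 alveolar type 1 markers higher in CLP livers. Of these, Sftpb, Napsa, Sftpc, Ager and Clic5 passed the filter through their CLP libraries alone, which leaves 2 of 3 and 0 of 1. Over all genes tested in liver, 21.4% were called higher and 21.0% lower. The part of these cell types in the members' changes was not tested.

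**Figure D1:**
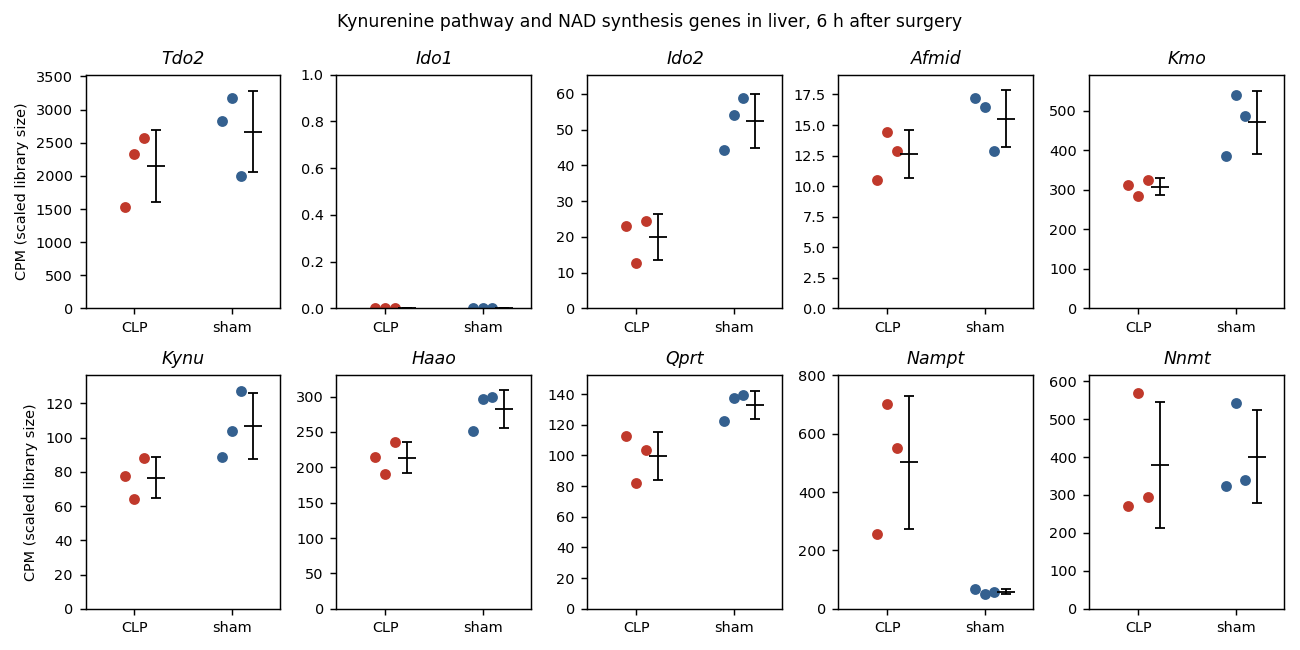
CPM of the members in each liver library on scaled library sizes, with CLP libraries left of sham libraries. Points are libraries and bars the mean with the SD of 3 libraries. Nampt stands higher in all 3 CLP livers, and Ido2 lower.

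In CLP lung, 5 members rose and 0 fell, of 9 tested. Ido1, Haao, Qprt, Nampt and Nnmt rose, Tdo2, Afmid, Kmo and Kynu did not pass, and Ido2 was too low to be tested. No member was lower at an unadjusted p below 0.05 in edgeR, and 0 were called lower by DESeq2 or limma-voom. Among all 15441 genes tested 48.9% were called, 23.9% higher and 24.9% lower. CLP and sham libraries did not overlap for 5 of the 9 tested members, the 5 called, beside 59.7% of all genes tested. The median over the 9 members was 0.95 on the log2 scale beside -0.03 over all genes. Ido1 and Qprt passed the low-count filter through their CLP libraries alone, so a rise was built into their being tested. Of the 7 members that passed it in both groups, 3 rose and 0 fell, and their median was 0.43.

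In CLP lung the libraries of Ido1 and Tdo2 overlapped in level per kilobase. Ido1 had 59, 45 and 28 counts, or 4.59, 3.64 and 2.55 CPM, in CLP lungs, against 10, 8 and 9 counts, or 0.813, 0.599 and 0.672 CPM, in sham lungs. The groups did not overlap, and Ido1 rose 5.16-fold, with a log2 fold change of 2.37 ± 0.31 and an adjusted p of 0.000598. Tdo2 had 4.36, 4.86 and 7.28 CPM in CLP lungs against 11.2, 5.91 and 4.63 CPM in sham lungs. Its groups overlapped, and the log2 fold change was -0.40 (95% interval -1.23 to 0.42), with an adjusted p of 0.386. Ido2 had 1, 1 and 3 counts in CLP lungs against 4, 6 and 6 counts in sham lungs, and no test was made. Per kilobase, Ido1 held 57.2 ± 13.9% of the level summed over the 3 genes in CLP lung and 17.2 ± 4.45% in sham lung (SD, n = 3 each). Tdo2 held 30.7 to 56.0% in CLP lungs and 70.8 to 84.4% in sham lungs. The shares rest on merged exon lengths of 1825 bases for Ido1 and 3881 for Tdo2. In counts over the 3 CLP lungs Tdo2 had more, at 196 against 132 for Ido1. These shares were not tested.

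Lung Tdo2 was small beside liver and other liver genes were detected in lung. On library totals, it stood at 0.145 to 0.249% of the mean of sham liver in CLP lungs and at 0.169 to 0.405% in sham lungs. The median of 9 hepatocyte markers stood at 0.0488 to 0.0572% in CLP lungs and at 0.0174 to 0.129% in sham lungs. Sham replicate 1 was the highest for both. The part of such liver transcripts in lung Tdo2 was not tested.

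Of the same 5 pathway genes in lung, Haao and Qprt rose, and Afmid, Kmo and Kynu did not pass. Qprt had 43, 46 and 46 counts, or 3.34, 3.72 and 4.19 CPM, in CLP lungs, against 5, 8 and 6 counts, or 0.406, 0.599 and 0.448 CPM, in sham lungs. It rose 7.57-fold, the largest rise of a member in lung, with a log2 fold change of 2.92 ± 0.27 and an adjusted p of 0.000138. Haao, which acts just before it in the pathway, had 4.36, 5.18 and 4.92 CPM in CLP lungs against 2.76, 2.10 and 2.54 CPM in sham lungs, with no overlap. It rose 1.95-fold, at 0.96 ± 0.19 on the log2 scale with an adjusted p of 0.00417. Kmo had 5.52, 4.77 and 6.01 CPM in CLP lungs against 4.88, 3.14 and 4.11 CPM in sham lungs, with a log2 fold change of 0.43 (95% interval -0.05 to 0.91) and an adjusted p of 0.123. Kynu had 2.57, 1.94 and 4.19 CPM in CLP lungs against 3.74, 3.44 and 3.58 CPM in sham lungs, with a log2 fold change of -0.32 (95% interval -0.96 to 0.33) and an adjusted p of 0.383. Their groups overlapped, and the CLP lungs spread more for Kynu. Afmid had 3.19, 2.99 and 3.46 CPM in CLP lungs against 3.33, 2.99 and 1.94 CPM in sham lungs, with a log2 fold change of 0.22 (95% interval -0.33 to 0.78) and an adjusted p of 0.479.

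Both nicotinamide genes rose in lung. Nampt had 289, 341 and 339.9 CPM in CLP lungs against 189, 179 and 133 CPM in sham lungs. It rose 1.94-fold, at 0.95 ± 0.14 on the log2 scale with an adjusted p of 0.00101. Nnmt had 10.7, 7.69 and 12.02 CPM in CLP lungs against 5.28, 4.64 and 5.45 CPM in sham lungs, with no overlap. It rose 1.97-fold, at 0.98 ± 0.19 on the log2 scale with an adjusted p of 0.00387. Nnmt per kilobase was 0.101 ± 0.025 times the level of Nampt in CLP lung and 0.101 ± 0.026 times in sham lung (SD, n = 3 each). Nampt per kilobase was 45.2 ± 2.75 times the level of Qprt in CLP lung and 185 ± 50.4 times in sham lung (SD, n = 3 each).

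In lung too, markers of several cell types differed between CLP and sham. Neutrophil markers summed to 7097 to 10422 CPM in CLP lungs and 999 to 1124 CPM in sham lungs, with 11 of 11 higher and none at 0, or 10 of 10 without Camp, which passed the filter through its CLP libraries alone. Monocyte and macrophage markers summed to 6071 to 6338 CPM in CLP lungs and 5564 to 5925 CPM in sham lungs, with 8 of 9 higher. Dendritic cell markers summed to 133 to 166 CPM in CLP lungs and 147 to 149 CPM in sham lungs, with 2 higher and 3 lower of 8. Without Xcr1, which passed the filter through its sham libraries alone, 2 were higher and 2 lower of 7. T and NK cell markers were higher for 5 of 9. Alveolar type 1 markers were lower for 4 of 6 and capillary and other endothelial markers for 4 of 8, with median log2 fold changes of -0.53 and -0.49. Over all genes tested in lung, 23.9% were called higher and 24.9% lower. The part of these cells in the members' changes was not tested.

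**Figure D2:**
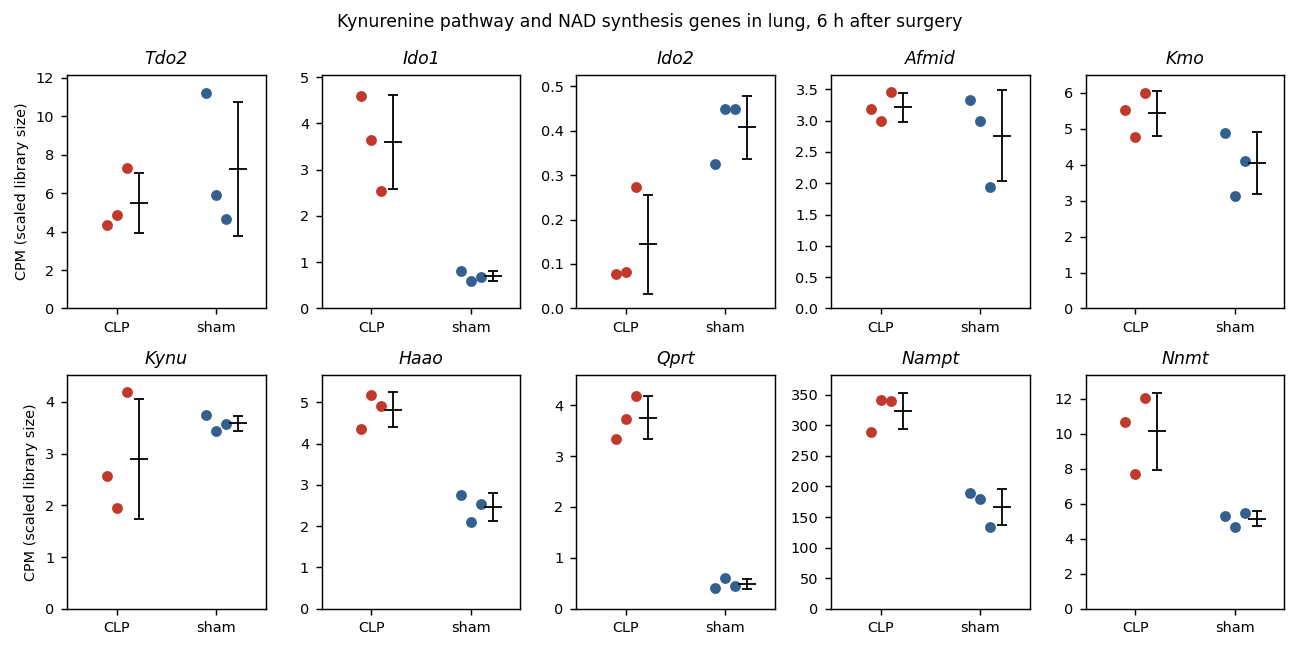
CPM of the members in each lung library on scaled library sizes, with CLP libraries left of sham libraries. Points are libraries and bars the mean with the SD of 3 libraries. Ido1, Haao, Qprt, Nampt and Nnmt lie higher in all 3 CLP lungs.

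The responses of the organs were set against each other as the log2 change in lung minus that in liver, in 1 model of all 12 libraries. For 3 members, Qprt, Haao and Kmo, it was higher in lung, and for Nampt it was lower. Of all 16111 genes tested, 17.7% were called, 8.89% higher and 8.84% lower. The difference was 3.30 ± 0.26 for Qprt (adjusted p = 9.48e-06) and 1.34 ± 0.20 for Haao (adjusted p = 0.000629). Both genes were called lower in CLP liver and higher in CLP lung. Their liver calls did not hold without some single libraries, with adjusted p in edgeR up to 0.109 for Haao and 0.101 for Qprt. Qprt passed the lung filter through its CLP libraries alone. The difference was 1.01 ± 0.24 for Kmo (adjusted p = 0.0120), which fell in CLP liver and did not pass in lung. For Nampt it was -2.17 ± 0.40 (adjusted p = 0.00298), and this gene rose in both organs. Nnmt, which rose in lung and did not pass in liver, differed by 1.03 (95% interval 0.08 to 1.99) with an adjusted p of 0.132, so a difference between organs was not shown. Without CLP liver replicate 2 it was 1.52 with an adjusted p of 0.00729. Afmid differed by 0.49 (95% interval -0.12 to 1.11), Kynu by 0.13 (95% interval -0.56 to 0.82), Tdo2 by -0.12 (95% interval -1.11 to 0.87) and Ido2 by -0.10 (95% interval -1.14 to 0.93), and none passed. Ido2 was too low to be tested in lung and entered this model through its liver libraries alone. Its value therefore says little of its response in lung. No value is given for Ido1, which had no counts in liver.

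**Figure D3:**
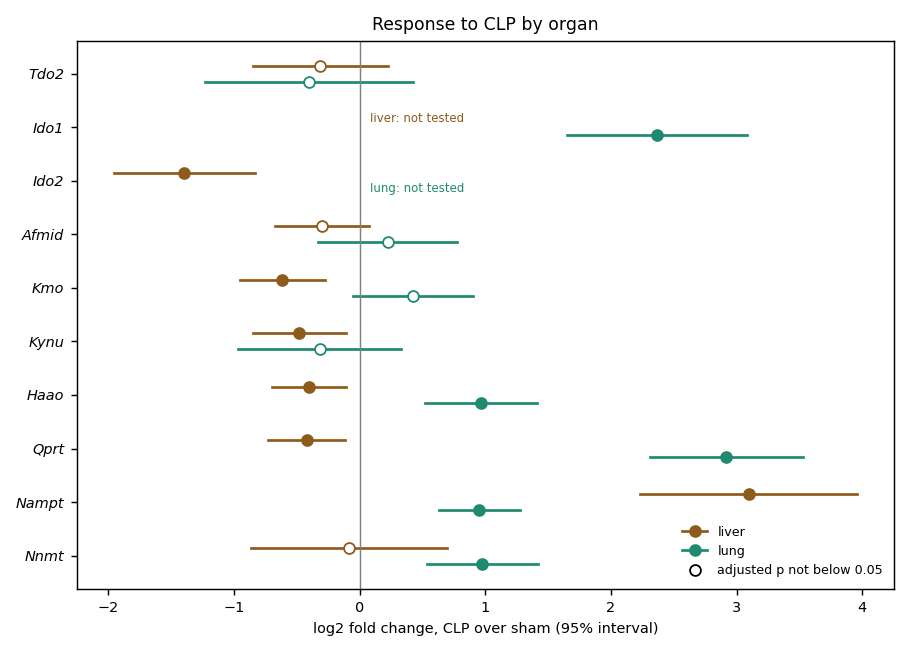
Log2 fold change of CLP over sham for each member in liver and in lung, with its 95% interval. Open points did not pass an adjusted p of 0.05, and Nampt is farthest right in liver and Qprt in lung.

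Without CLP, most members were lower in lung than in liver. In sham lung 8 of 10 were lower than in sham liver, 1 was higher and Nampt did not pass. Over all genes 80.8% were called, 36.5% lower and 44.4% higher. The 1 higher was Ido1, which had no counts in liver. It passed the filter through lung libraries alone, so a higher level in lung was built into its being tested. Tdo2 was lower by the most, at -9.88 ± 0.44 on the log2 scale, followed by Qprt at -9.41 ± 0.19. Afmid was lower by the least, at -3.85 ± 0.20, and Ido2, Kmo, Haao, Nnmt and Kynu lay between -8.31 and -6.25, all with adjusted p of 1.05e-09 or less. Nampt differed by 0.15 (95% interval -0.47 to 0.76) with an adjusted p of 0.637, but by 1.45 with an adjusted p of 0.000432 with library totals alone. Ido1 had 27 counts over the sham lungs and 0 over the sham livers. On library totals alone that was at least 9.83-fold higher in lung, taking 3 counts over the group as the limit of 0. After CLP it had 132 counts in lung and 0 in liver, at least 44.1-fold higher in lung on the same totals. Library totals moved the median of all genes by 1.31 on the log2 scale in sham lung minus sham liver. Both bounds therefore hold for totals alone and are not on the scaling of the other values.

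The order of levels per kilobase differed by organ. In CLP liver it ran Tdo2 at 554 ± 140.0, Nnmt at 240.2 ± 105, Nampt at 99.4 ± 45.0, Kmo at 65.1 ± 4.60, Haao at 45.7 ± 4.82 and Qprt at 37.6 ± 5.88 CPM per kilobase (SD, n = 3 each), then Kynu, Ido2 and Afmid. The libraries of Nampt and Kmo, of Haao and Qprt, and of Ido2 and Afmid overlapped. In sham liver Nampt, at 11.6 ± 1.49 CPM per kilobase, stood under Ido2, whose libraries overlapped those of Nampt. In CLP lung Nampt led at 64.0 ± 5.93 CPM per kilobase (SD, n = 3), followed by Nnmt at 6.42 ± 1.40, and the libraries of Ido1, Qprt, Tdo2, Kmo, Haao and Afmid overlapped from each to the next, at 0.908 to 1.97 CPM per kilobase on average. In sham lung Qprt stood at 0.183 ± 0.038 CPM per kilobase (SD, n = 3), above Ido2 alone.

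**Figure D4:**
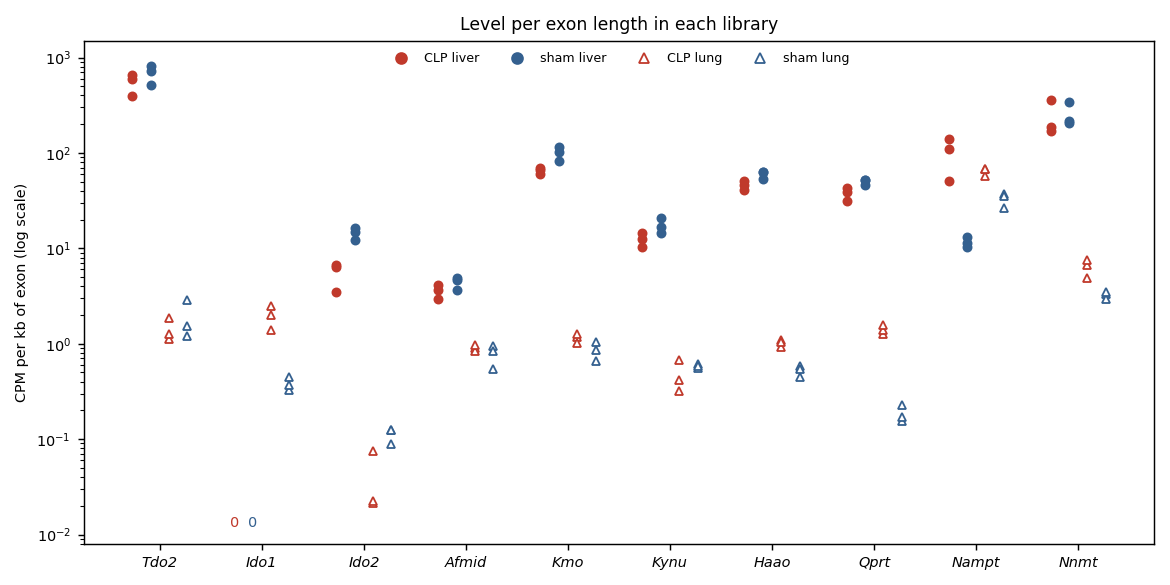
CPM per kilobase of exon in each library, on a log axis, for each member. Points are libraries, with CLP left of sham in each organ, and Ido1 in liver is shown as 0.

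The genes whose libraries ran most like the leading members were named by the smallest mean absolute difference of log2 CPM, each gene centred on its sham mean, over 6 libraries. For Nampt in liver they were Ddit4, a growth-signal inhibitor, with a difference of 0.24, D10Wsu102e with 0.25 and Serpina3g, a serine protease inhibitor, with 0.30. For Qprt in lung they were Fcgr4, an activating Fc receptor, with 0.16, Chil5, a chitinase-like protein, with 0.18 and 9130208D14Rik with 0.18. The log2 fold change of Chil5 in lung was 3.39 ± 0.45, and 4.03 without sham lung replicate 2.

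The neighbouring steps of tryptophan use were read as lists. Over all genes tested, 21.4% were called higher and 21.0% lower in liver, and 23.9% higher and 24.9% lower in lung. None of 5 tested other kynurenine enzymes (Acmsd, Kyat1, Kyat3, Aadat and Got2) passed in liver, and none of 3 in lung, by edgeR, DESeq2 or limma-voom, and 0 had an unadjusted p below 0.05 in edgeR. With library totals alone, edgeR called 1 lower in liver. Of the enzymes that put tryptophan to other uses, 1 of 7 rose in liver, and 2 rose and 4 fell of 7 in lung. Without CLP liver replicate 1, 1 of them was also called lower in liver. Ddc passed the lung filter through its sham libraries alone, and without it 2 rose and 3 fell of 6 in lung. Wars, the tryptophan tRNA synthetase that interferon induces, rose in liver with 53.2, 63.3 and 57.4 CPM in CLP livers against 24.8, 33.4 and 29.6 CPM in sham livers, a log2 fold change of 0.99 ± 0.13 (adjusted p = 0.000579). In lung Il4i1, an amino acid oxidase whose exons overlap 3 other genes, rose by 1.99 ± 0.30 on the log2 scale (adjusted p = 0.00108). Inmt, which methylates indoles, changed by -1.83 ± 0.26 (adjusted p = 0.00118), and Maoa, the monoamine oxidase, by -0.89 ± 0.14 (adjusted p = 0.00133). Of the transporters, 5 of 6 tested rose in liver and 1 fell, and 5 of 7 rose in lung. Slc7a11 passed the liver filter through its CLP libraries alone, and without it 4 of 5 transporters rose there and 1 fell. In liver 3 were called higher without CLP replicate 2, sham replicate 2 or sham replicate 3, and also with library totals or upper-quartile scaling, and in lung both of those scalings called 1 lower. Slc7a5, the large neutral amino acid carrier, rose in lung with 48.8, 43.4 and 44.5 CPM in CLP lungs against 16.7, 20.4 and 14.5 CPM in sham lungs.

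Slc7a11, the cystine carrier that can also move kynurenine, had 3683, 2616 and 669 counts in CLP lungs against 35, 34 and 47 counts in sham lungs, a log2 fold change of 5.97 ± 0.70 (adjusted p = 0.00113). In liver it had 135, 92 and 23 counts in CLP livers against 2, 2 and 0 counts in sham livers. Slc16a10, an aromatic amino acid carrier, changed by -0.68 ± 0.19 in liver (adjusted p = 0.0219), a call that ended without CLP replicate 1, CLP replicate 3, sham replicate 1 or sham replicate 2, with adjusted p of 0.0586 to 0.0801. Slc7a8 and Slc3a2, a light and a heavy chain of amino acid exchangers, rose in liver by 0.86 ± 0.17 and 0.73 ± 0.14 on the log2 scale (adjusted p = 0.00384 and 0.00375).

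All genes tested were called higher for 21.4% and lower for 21.0% in liver, and for 23.9% and 24.9% in lung. Of the other genes of NAD synthesis and salvage, 2 rose and 2 fell of 10 tested in liver, and 3 rose and 4 fell of 12 in lung. In liver 1 was called lower without CLP replicate 3, sham replicate 1 or sham replicate 3, and 4 with library totals or upper-quartile scaling. Pnp, the purine nucleoside phosphorylase that frees nicotinamide from its riboside and whose exons overlap a predicted gene, rose in liver by 1.72 ± 0.17 (adjusted p = 0.000181) and in lung by 0.67 ± 0.11 (adjusted p = 0.00155). In lung Nadk, which makes NADP from NAD, rose with 378, 428 and 297 CPM in CLP lungs against 167, 163 and 169 CPM in sham lungs, and its mitochondrial relative Nadk2 changed by -0.60 ± 0.10 (adjusted p = 0.00187). Nadsyn1, the last enzyme of the route from quinolinate, changed by -0.71 ± 0.13 in liver (adjusted p = 0.00258). Slc25a51, the mitochondrial NAD carrier, rose in liver by 0.84 ± 0.17 (adjusted p = 0.00450).

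Shares over all genes were 21.4% higher and 21.0% lower in liver, and 23.9% higher and 24.9% lower in lung. Of the NAD-consuming enzymes, 13 rose and 4 fell of 25 tested in liver, and 8 rose and 5 fell of 24 in lung. Bst1 and Sarm1 passed the liver filter through their CLP libraries alone, and without them 11 rose and 4 fell of 23. With library totals 7 were called lower in liver, and in lung 3 were called lower without CLP replicate 1, sham replicate 1 or sham replicate 3. Tiparp, an ADP-ribosyl transferase and aryl hydrocarbon receptor target, had 167, 175 and 174 CPM in CLP livers against 10.5, 15.9 and 14.4 CPM in sham livers. It rose by 3.66 ± 0.16 in liver (adjusted p = 7.28e-06) and by 1.84 ± 0.09 in lung (adjusted p = 1.57e-05). Parp10 rose by 1.78 ± 0.15 in liver and 1.38 ± 0.15 in lung, and Parp12 rose by 1.71 ± 0.13 in liver. Sirt3, the mitochondrial deacylase, changed by -0.91 ± 0.10 in liver (adjusted p = 0.000270). Bst1, a cell-surface enzyme that hydrolyses NAD, rose by 1.88 ± 0.23 in lung (adjusted p = 0.000635), and Sirt4 changed by -0.85 ± 0.12 (adjusted p = 0.000966). Exons of Tiparp, Parp10, Sirt3 and Bst1 overlap other genes, and their reads may be shared.

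For the next 2 lists too, the shares over all genes were 21.4% higher and 21.0% lower in liver. In lung they were 23.9% and 24.9%. Of the genes for nicotinamide and methyl-group handling, 3 fell of 14 tested in liver, and 3 rose and 4 fell of 12 in lung. In liver 6 were called lower with library totals, and 1 was called higher without CLP replicate 2 and with no low-count filter. The 3 in liver were Bhmt2 at -1.27 ± 0.26, Mtr at -0.69 ± 0.15 and Cyp2e1 at -0.80 ± 0.20 on the log2 scale (adjusted p of 0.00623, 0.00625 and 0.0113). In lung Mat1a, a synthetase of S-adenosylmethionine, rose by 1.43 ± 0.15 (adjusted p = 0.000214) and Gamt, which uses it, changed by -2.08 ± 0.27 (adjusted p = 0.000612). Gamt passed the lung filter through its sham libraries alone, so a fall was built into its being tested. Without it 3 rose and 3 fell of 11 in lung. Of the aryl hydrocarbon receptor list, 2 rose of 7 tested in liver, and 4 rose and 1 fell of 7 in lung, the 1 being Ahr itself at -1.19 ± 0.08 (adjusted p = 4.06e-05). With no low-count filter 2 of that list were called higher in lung.

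The last lists also stand beside 21.4% higher and 21.0% lower over all genes in liver, and 23.9% and 24.9% in lung. Interferon-gamma signalling genes rose for 10 of 13 tested in liver and 12 of 13 in lung. Ifng itself was too low to be tested in either organ. Cxcl9, Cxcl10 and Socs1 passed the lung filter through their CLP libraries alone, and without them 9 of 10 rose. Without sham lung replicate 2, 1 was called lower in lung. Socs1, the feedback inhibitor, rose by 5.43 ± 0.18 in liver (adjusted p = 4.53e-06) and by 2.95 ± 0.29 in lung (adjusted p = 0.000178). Cxcl9, a chemokine, had 335, 471 and 515 CPM in CLP livers against 8.51, 11.3 and 5.33 CPM in sham livers, while Ido1 had no counts there. Of the clock genes, 1 rose and 6 fell of 13 tested in each organ. The 1 in liver is Npas2, which passed the filter through its CLP libraries alone, and 2 were called higher there by DESeq2, with the replicate block, in 1 fit of all 12 libraries or without CLP replicate 3. With library totals or upper-quartile scaling 9 were called lower in liver. In lung the number higher was 3 without CLP replicate 3, 0 without sham replicate 2 and with either of those scalings, and 2 by DESeq2, with the block or at a minimum count of 30, and the number lower was 3 with no low-count filter. Hlf fell in both, with changes of -1.92 ± 0.18 in liver (adjusted p = 0.000129) and -2.04 ± 0.36 in lung (adjusted p = 0.00376). Per3 changed by -3.81 ± 0.46 in liver (adjusted p = 0.000775). Of the glucocorticoid list, which holds Tat, 3 rose and 2 fell of 10 tested in liver, and 3 rose and 1 fell of 8 in lung. In lung 0 were called lower without CLP replicate 1, sham replicate 2 or sham replicate 3, 2 with library totals, upper-quartile scaling or no filter, and 1 was called higher with no filter. Tat, the tyrosine aminotransferase, rose by 1.56 ± 0.22 in liver (adjusted p = 0.000845), and Tsc22d3 of the same list changed by -1.55 ± 0.26 there (adjusted p = 0.00267).

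**Figure D5:**
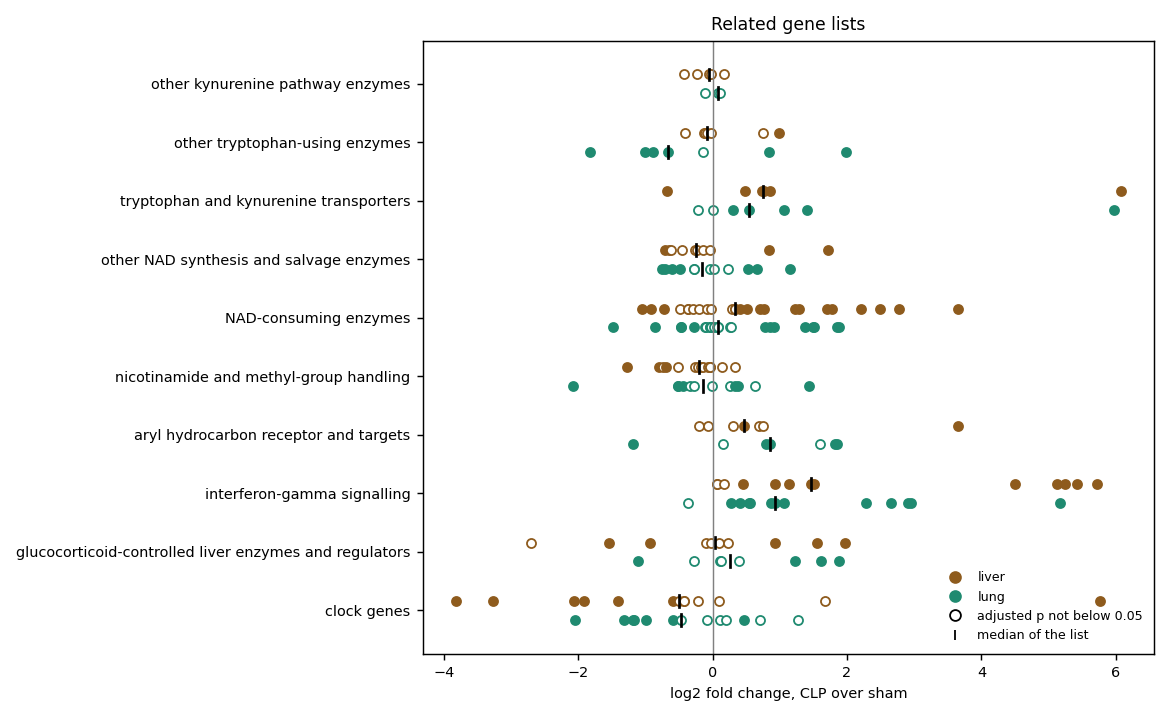
Log2 fold change of CLP over sham for genes of the related lists in liver and in lung. Each point is a gene, bars are list medians, and open points did not pass an adjusted p of 0.05.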

How the data were processed

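Whole-number counts per gene, not normalized, of 12 libraries stand in 1 deposited table. Per the labels' protocols, total RNA was made into libraries with a stranded TruSeq kit. FastQC, STAR 2.7.10a, featureCounts and DESeq2, and the build mm39, are named with no role, per the submitters' processing notes. Neither the strand setting nor the annotation release is given in the sources used here. Symbols were matched by gene identifier for 52081 of 55414 genes. Per-kilobase levels use merged exon lengths of an older annotation, since no mm39 annotation was at hand.

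edgeR 4.0.16 in R 4.3.3 was run on the counts after its filter (minimum count 10, minimum total 15), with TMM scaling and robust quasi-likelihood tests, 6 libraries per organ, and 12 for the difference between organs. The SE is the log2 fold change divided by the square root of F, an approximation. Intervals of 95% use the t distribution with the fitted degrees of freedom. Pairs of replicates differed by 5.28 to 37.6 chi-square units per degree of freedom, so none was counted as a repeat. The replicate numbers of the labels were not taken as pairs, since not every same-number correlation passed 0.1. The members and lists were chosen with earlier results of these data known. Genes named from a list are up to 3 with the lowest p among those called in each organ and called genes against the list's majority. Only some of them are described. The test was tried on simulated counts. Alternatives were RLE, upper-quartile and total-count scaling, other filters, DESeq2 1.42.0, limma-voom (limma 3.58.1), a replicate block, other fits and leaving out each library.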

Additional observations from a re-analysis of the deposited data

Results flagged for a closer look

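In 4 members the response to CLP differed between lung and liver, by the test of the difference itself in edgeR over 12 libraries. The change in lung minus that in liver was 3.30 for Qprt, 1.34 for Haao and 1.01 for Kmo on the log2 scale, and -2.17 for Nampt. Each of these 4 calls held under all 21 alternatives. Groups of 3 libraries were not screened for libraries that stand apart.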

How the results depend on the processing

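The 5 lung calls, the calls of Nampt, Ido2 and Kmo in liver and the 4 differences between organs passed under all alternatives run (15 within an organ, 21 for the difference). With 1 library left out, the number of members called in liver ran from 3 to 6, the lower value without CLP replicate 2, sham replicate 2 or sham replicate 3, and the number lower from 2 to 5. Without single libraries, Kynu had adjusted p up to 0.143, Haao up to 0.109 and Qprt up to 0.101 in liver. The cause was not tested. With library totals alone Afmid in liver was called at -0.50, with an adjusted p of 0.0454, and 2 members were higher in sham lung than in sham liver.

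No value that turned its direction was called. Without single libraries, Nnmt in liver ran from -0.50 to 0.20, Tdo2 in lung from -0.61 to 0.05, Nampt in sham lung minus sham liver from -0.017 to 0.29, and, for the difference in response, Tdo2 from -0.36 to 0.33, Ido2 from -0.80 to 0.18 and Kynu from -0.21 to 0.35; with library totals alone the difference of Tdo2 was 0.0074.

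The replicate block gave 6 members called in liver, 5 in lung and 4 in the difference, as without it. Same-number correlations were 0.051 to 0.173 in liver and 0.023 to 0.092 in lung. Between lung and liver they were 0.094 to 0.267 in CLP and -0.017 to 0.115 in sham libraries. Within liver and between the organs after CLP, 6 of 6 libraries correlated best with their own number. Within lung and between the organs after sham surgery it was 4 of 6. The labels do not say whether lung and liver libraries share mice.

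With library totals alone liver calls were 1689 higher and 3796 lower, and with upper-quartile scaling 2122 and 3144, against 2647 and 2600. In lung they were 2977 and 4847, and 2929 and 4946, against 3698 and 3850. For the difference, library totals gave 1861 and 965 against 1432 and 1424, and for sham lung minus sham liver 11983 and 2401 against 7146 and 5875. These scalings moved the median of all genes by -0.20 (totals) in liver, -0.10 (totals) and -0.11 (upper quartile) in lung, 0.11 (totals) in the difference and 1.31 (totals) and 0.25 (upper quartile) in sham lung minus sham liver. Depth limits Ido1, Ido2 and Qprt in lung, where single libraries held as few as 8, 1 and 5 counts in that order.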
